A study of Mus musculus with 168 samples.

Results

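The cortex of 10-month-old Q111 knock-in mice was compared with that of Q20 and wild type mice of the same age, 8 Q111 libraries against 16 control libraries, out of 168 cortex libraries in the series. The libraries were chosen by their titles alone. Small RNA was sequenced from C57BL/6 mice, and the values are estimated read counts per annotated microRNA hairpin. Q111 and Q20 mice were heterozygous: 1 Htt allele was the mouse's own, and the other carried a knocked-in human HTT exon 1 with 111 or 20 CAG repeats under the endogenous mouse promoter. The 8 Q20 mice carried a repeat of unexpanded length, and the 8 WT mice were littermates of the Q20 line with 7 CAG repeats. Each genotype had 4 females and 4 males by the cage in which the mice lived. The Q20 library F5 is titled as female, although its mouse identifier carries the number of the cage of the males, and it was taken as male. Every Q111 mouse came from cages of the Q111 line and every control from cages of the Q20 line, so genotype cannot be told apart from line and cage. The Htt allele itself cannot be checked in counts of microRNAs.

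MicroRNAs are short RNAs cut from hairpin transcripts, and they guide the silencing of messenger RNAs that pair with them. Pairing depends mostly on the seed, bases 2 to 8 from the 5′ end, so microRNAs with the same seed share many targets. An expanded CAG repeat in HTT causes Huntington disease, in which neurons of the striatum and the cortex are lost. Because bulk tissue was sequenced, fewer cells of a type and less RNA per cell cannot be told apart.

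The counts were given per hairpin, so the strands cut from one hairpin were not told apart. The mature sequences below come from RefSeq for build GRCm38.p6, with the seed in capitals. The first set holds microRNAs with an unadjusted p under 0.05 in Q111 against controls that are described in detail, together with a relative that shares a seed or nearly the whole sequence.
mmu-miR-344b-3p: cAUUUAGCcaaagccugacugu
mmu-miR-344b-5p: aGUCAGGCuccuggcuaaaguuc
mmu-miR-344d-3p: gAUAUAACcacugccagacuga
mmu-miR-344d-1-5p: aGUCAGGCugcuggcuauacacca
mmu-miR-423-5p: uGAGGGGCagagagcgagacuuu
mmu-miR-423-3p: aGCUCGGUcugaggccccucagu
mmu-miR-211-5p: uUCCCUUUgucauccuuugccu
mmu-miR-204-5p: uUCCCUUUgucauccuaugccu
mmu-miR-370-3p: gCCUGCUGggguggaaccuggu
mmu-miR-135b-3p: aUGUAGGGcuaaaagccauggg
mmu-miR-134-5p: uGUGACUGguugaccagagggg
mmu-miR-154-5p: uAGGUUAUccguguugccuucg

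miR-344b-5p and miR-344d-1-5p share their seed, and so do miR-211-5p and miR-204-5p, which have 21 of 22 positions in common. Mir135b is shown by its 3p strand alone, because the sequences used held no entry for its 5p strand. The second set holds microRNAs that differed between Q175 and Q111, a comparison described further on, and it is shown for the seeds they have in common.
mmu-miR-132-3p: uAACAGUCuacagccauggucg
mmu-miR-212-3p: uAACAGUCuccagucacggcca
mmu-miR-221-3p: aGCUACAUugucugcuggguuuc
mmu-miR-222-3p: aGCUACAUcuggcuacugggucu
mmu-miR-15a-5p: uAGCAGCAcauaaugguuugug
mmu-miR-16-5p: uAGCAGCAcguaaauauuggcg
mmu-miR-195a-5p: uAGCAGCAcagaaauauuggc

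The Q111 libraries held between 4226816 and 5753948 counts and the control libraries between 2041741 and 5223075, with medians of 4731470 and 4592349. Between 65.4% and 69.03% of the counts in a Q111 library and between 65.68% and 68.65% in a control library fell on the microRNAs tested. The neuronal microRNAs, which do not tell cortex from other brain tissue, summed to between 106428.7 and 115097.2 CPM (counts scaled to the library total, TMM-normalised) in Q111 libraries and to between 102761.1 and 120288.9 in controls. The library names carry a code that the labels do not explain, L6 in 3 Q111 and 7 control libraries, L7 in 5 and 4, and L8 in 0 and 5. The libraries Q111 M1 (the first male), Q20 F1 and Q20 M2 stood apart, with mean correlations of 0.9858, 0.9877 and 0.9886 to the remaining libraries on the log scale, where the next lowest was 0.9916. Without each of them in turn, 0 microRNAs passed the false discovery rate (FDR) of 0.05, and 26, 22 and 21 had an unadjusted p under 0.05. Without all 3 libraries 0 passed and 33 had an unadjusted p under 0.05, against 21 with them, an alternative chosen after the data were seen.

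No microRNA passed FDR < 0.05 between Q111 mice and controls in the 10-month cortex (0 of 327 tested, 0%, edgeR quasi-likelihood test with Benjamini-Hochberg adjustment). The smallest adjusted p was 0.392. At an unadjusted p under 0.05 there were 21 microRNAs, 6.42% of those tested, of which 11 were higher in Q111 (3.36%) and 10 lower (3.06%). DESeq2 on the same counts passed 1 microRNA, Mir344b. With the L code as a covariate 39 had an unadjusted p under 0.05 and 1 passed, Mir423. Against the Q20 mice alone, 0 of 325 passed and 24 had an unadjusted p under 0.05 (7.38%), and DESeq2 passed 1, Mir423. The same test between the 2 control genotypes, WT against Q20, gave 0 microRNAs past the FDR, with DESeq2 as well, and 12 at an unadjusted p under 0.05 (3.69% of 325).

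The differences were small where the counts were deep. Of 217 microRNAs with a mean of at least 10 CPM, 200 (92.2%) had a 95% interval of the log2 difference that lay within 0.5 of 0, which is a 1.41-fold change either way. The interval lay within 1 of 0, a 2-fold change, for 213 of them. Below 10 CPM the intervals were wide, with a median half-width of 0.65 against 0.13 for the deeper microRNAs, and for 110 such microRNAs changes of less than 2-fold were often not detectable at this depth. Across all 327, the median log2 difference was -0.010, 150 differences lay above 0 and 177 below, and in no case did the range of the 8 Q111 mice fall wholly outside the range of the 16 controls. All 8 Q111 mice lay above the control median for 7 microRNAs and below it for 5.

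**Figure D1:**
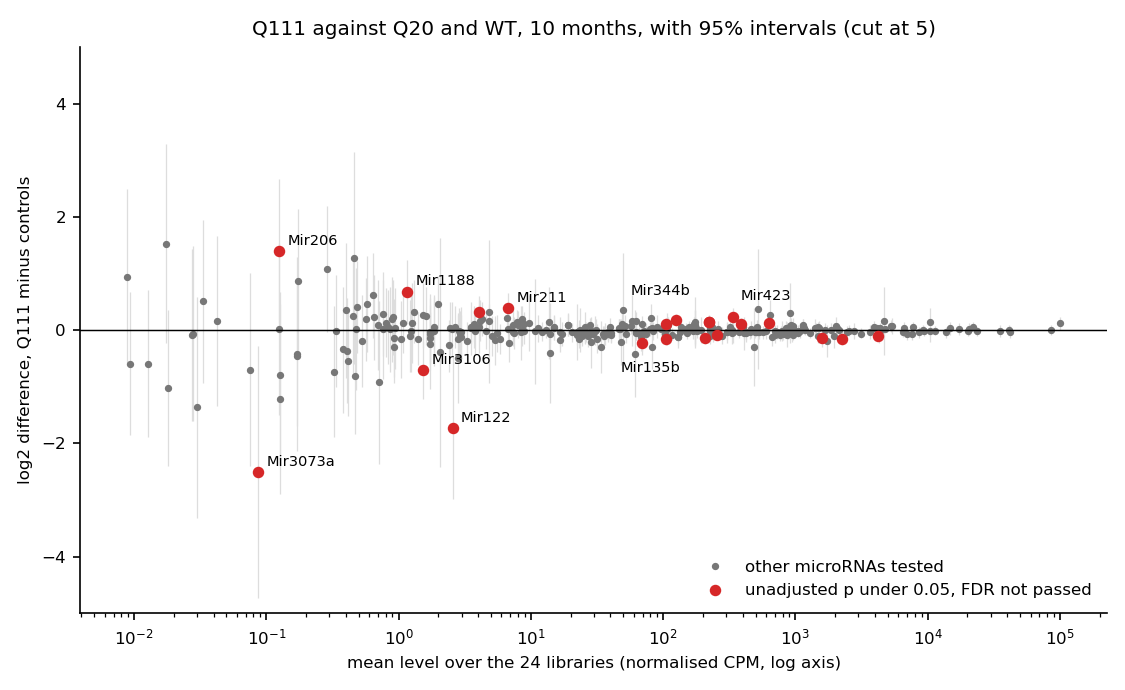
Log2 difference between Q111 and controls (vertical axis) against the mean level over the 24 libraries in normalised CPM (horizontal log axis), 1 point per microRNA with its 95% interval. The 21 red points had an unadjusted p under 0.05 and none passed the FDR, and above 10 CPM the points lie close to 0 while the wide intervals are at low levels.

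Mir344b had the smallest p. It belongs to a group of rodent microRNAs clustered on chromosome 7, at chr7:61790519-61790581 (minus strand, GRCm38), inside an intron of the long noncoding RNA A230057D06Rik. Its level in Q111 mice was 118.6 CPM at the lowest, 137.3 at the median and 143.4 at the highest, against 103.6, 121.3 and 135.9 CPM in controls. The means were 135.9 ± 7.98 CPM (SD, n = 8) and 120.4 ± 10.0 CPM (SD, n = 16), and 7 of 8 Q111 mice lay above the control median and 4 above every control. The log2 difference was 0.18 (SE 0.05, unadjusted p 0.00122, adjusted p 0.392 by edgeR). Its neighbour Mir344d-1, whose 5p strand has the same seed, differed by 0.14 (SE 0.06, unadjusted p 0.0341), with 6 of 8 Q111 mice above the control median. Of the 8 tested members of the Mir344 group, 6 had a difference above 0 and 2 below, and 2 had an unadjusted p under 0.05. Over all microRNAs 6.42% had such a p. The median log2 difference of the group was 0.16 against -0.010 over all microRNAs. Without Q111 M1 it was 0.11, and 1 member had an unadjusted p under 0.05, against 26 of all microRNAs. Mir344d-1 then differed by 0.09 (unadjusted p 0.134). Of the 8 members, 4 had 0 counts in some libraries. RefSeq gives Mir344d-1 and Mir344d-3 the same mature 3p strand, so reads may have been split between these hairpins and their values are uncertain.

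Mir423, a broadly expressed microRNA in an intron of Nsrp1 (chr11:77078064-77078172, minus strand), was higher than the control median in all 8 Q111 mice. Its level ran from 343.5 CPM over a median of 367.5 to 428.1 in Q111, and from 246.1 over 316.7 to 389.1 in controls, so the groups overlapped and 3 Q111 mice exceeded every control. The controls themselves stood at 300.4 ± 44.7 CPM in Q20 (SD, n = 8) and 335.3 ± 41.7 in WT (SD, n = 8). The log2 difference was 0.24 (SE 0.07, unadjusted p 0.00351, adjusted p 0.392). The 5 control libraries with the code L8, which no Q111 library has, held Mir423 at 342.6 to 389.1 CPM. Within the L6 libraries the difference was 0.31 and within the L7 libraries 0.38. With the code as a covariate it was 0.34 (adjusted p 0.00973), and without the L8 libraries 0.34 (adjusted p 0.019), so the call for Mir423 turned on the handling of the code.

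Mir211 and Mir370 came next by p among the microRNAs higher in Q111. Mir211 lies in an intron of Trpm1, the ion channel gene of pigment cells, and differs from Mir204, a marker of choroid plexus epithelium, by a single base of the mature strand. It was measured at 4.86, 8.12 and 10.9 CPM (lowest, median and highest) in Q111 and at 4.13, 6.04 and 8.79 in controls, a log2 difference of 0.39 (SE 0.13, unadjusted p 0.00585, adjusted p 0.392). The difference was 0.65 within the L6 libraries and 0.30 within the L7 libraries. Mir370, from the maternally expressed imprinted Dlk1-Dio3 cluster on chromosome 12, was at 219.0, 241.9 and 257.9 CPM in Q111 and 181.9, 216.6 and 243.9 in controls. All 8 Q111 mice lay above its control median, and the log2 difference was 0.15 (unadjusted p 0.00815, adjusted p 0.392).

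**Figure D2:**
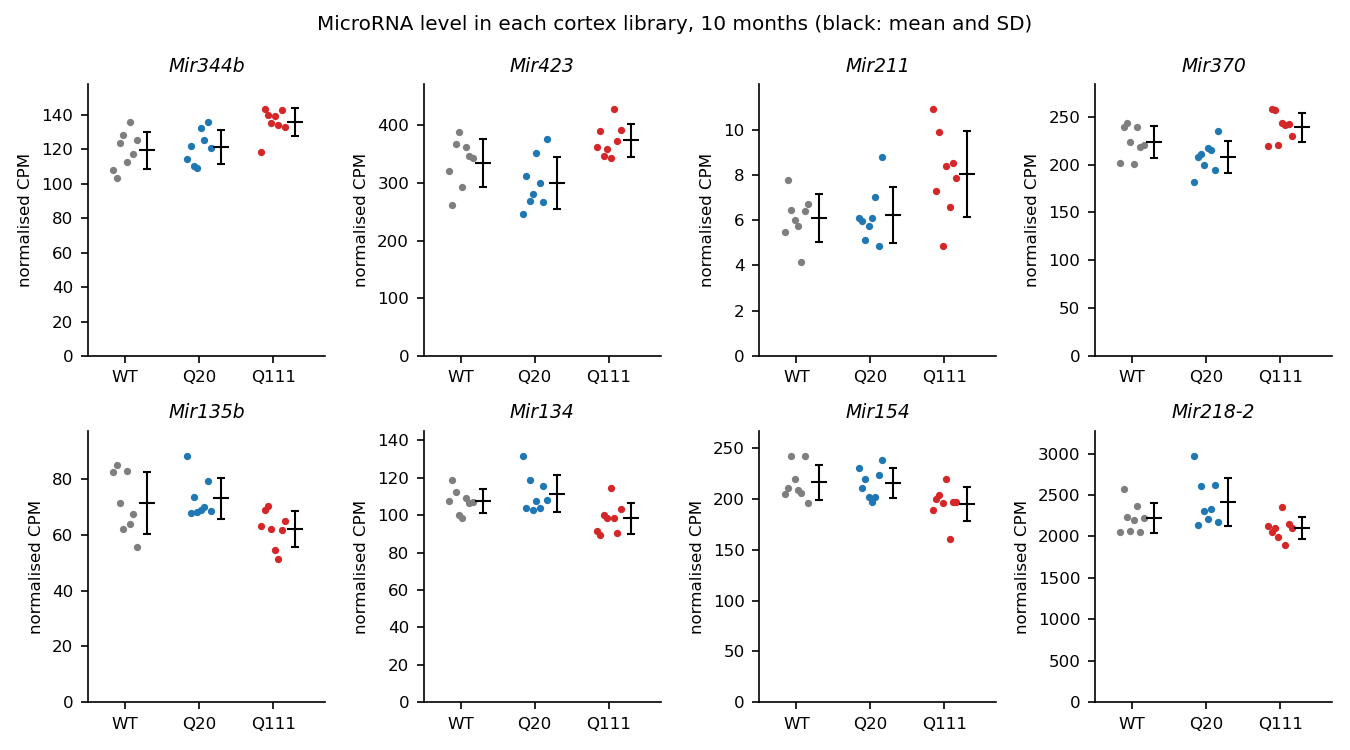
Normalised CPM (vertical axes from 0) of 8 microRNAs in each 10-month cortex library of WT, Q20 and Q111 mice, 8 libraries each, with the mean and SD in black. Q111 values sit mostly above the controls for Mir344b, Mir423, Mir211 and Mir370 and mostly below for Mir135b, Mir134, Mir154 and Mir218-2, with overlap in every panel.

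Among the microRNAs lower in Q111, Mir135b had the smallest p. It lies in an intron of Lemd1 (chr1:132198088-132198184, plus strand). Its level was 51.1, 62.6 and 70.3 CPM (lowest, median and highest) in Q111 and 55.6, 69.3 and 88.2 in controls, with means of 62.1 ± 6.54 (SD, n = 8) and 72.2 ± 9.06 CPM (SD, n = 16). All but 1 of the Q111 mice lay below the control median and 2 below every control. The log2 difference was -0.22 (SE 0.07, unadjusted p 0.00485, adjusted p 0.392). It was -0.38 within the L6 libraries and -0.20 within the L7 libraries, and the adjusted p with the code as a covariate was 0.0514.

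Mir134 and Mir154 are further members of the Dlk1-Dio3 cluster, and Mir134 is known for limiting the growth of dendritic spines. Mir134 stood at 89.4, 98.4 and 114.5 CPM in Q111 and 98.7, 107.5 and 131.7 in controls, with 5 of 8 Q111 mice below every control and a log2 difference of -0.15 (unadjusted p 0.00787, adjusted p 0.392). Mir154 stood at 160.0, 196.6 and 219.6 CPM against 196.2, 210.6 and 242.2, a difference of -0.14 (unadjusted p 0.0109, adjusted p 0.395). Without the L8 controls the difference in Mir154 was -0.10 (unadjusted p 0.0641). For Mir337 of the same cluster all 8 Q111 mice lay below the control median, at 222.9 to 255.9 CPM against 225.8 to 285.4 (log2 difference -0.09, unadjusted p 0.0237).

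Of the 50 listed members of the Dlk1-Dio3 cluster, 36 were tested. Among these, 17 had a difference above 0 and 19 below, with a median of -0.01 against -0.010 over all microRNAs. At an unadjusted p under 0.05, Mir370 and Mir1188 were higher and Mir134, Mir154 and Mir337 lower, and none passed the FDR. Over all microRNAs 3.36% were higher and 3.06% lower at that p. Further members were measured only in a fit over all transcripts. Of those, Mir434 differed by 0.16 (unadjusted p 0.00624), and the others did not reach an unadjusted p of 0.05. Mir1188 was measured at only 0.449 to 2.65 CPM in Q111 and 0.203 to 1.92 in controls (log2 difference 0.68, SE 0.28, unadjusted p 0.0212). With the steps of the methods its difference was 0.10, but that fit shrinks differences towards 0, so the sizes are not comparable.

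No neuronal microRNA passed the FDR. Of 17 tested members, 4 had a difference above 0 and 13 below, with a median of -0.03 (-0.05 without Q111 M1), and 2 reached an unadjusted p under 0.05, both lower. Over all 327 microRNAs 177 lay below 0, the median was -0.010 and 3.06% were lower at an unadjusted p under 0.05. Mir218-2, in an intron of the axon guidance gene Slit3, was at 1902.8, 2100.4 and 2360.4 CPM in Q111 and 2052.8, 2229.8 and 2974.0 in controls (log2 difference -0.15, unadjusted p 0.0208). Its mature strand is also made from Mir218-1, so its count is uncertain. Mir153, in an intron of Ptprn2, was at 1261.9 to 1690.7 CPM against 1365.1 to 1971.0 (-0.14, unadjusted p 0.0495), with -0.08 within the L6 libraries and 0.0010 within the L7 libraries. Mir128-1, an abundant neuronal microRNA that restrains excitability, was at 31262.7 to 39153.7 CPM in Q111 and 29839.4 to 42131.7 in controls, with a difference of -0.01 (95% interval -0.12 to 0.10). Its mature strand is also made from Mir128-2, which differed by -0.04, so the split between them is uncertain.

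Mir132 and Mir212 are transcribed together, are induced by neuronal activity through CREB, and share their seed. Mir132 was at 6997.4, 7380.3 and 7707.6 CPM in Q111 and 6239.6, 7740.8 and 9648.1 in controls. Mir212 was at 1354.4, 1382.0 and 1532.5 CPM against 1130.4, 1534.6 and 1731.8. All 8 Q111 mice lay below the control median for both, inside the control range. The log2 differences were -0.07 for Mir132 (95% interval -0.18 to 0.05, unadjusted p 0.245) and -0.11 for Mir212 (95% interval -0.22 to 0.01, unadjusted p 0.0625), and neither passed the FDR.

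A list of 20 microRNAs, most of which the study names for the cortex or for other brain regions, was tested in full. Of these, 6 had a difference above 0 and 14 below with a median of -0.04. Mir135b and Mir218-2 had an unadjusted p under 0.05, against 4 members without Q111 M1. Over all 327 microRNAs 177 lay below 0 and 21 (6.42%) had an unadjusted p under 0.05, or 26 without Q111 M1. Some of the 20 were chosen by the study on libraries that include the present ones, so the list is not independent evidence. The remaining microRNAs at an unadjusted p under 0.05 and above 100 CPM were Mir383 (0.13, unadjusted p 0.0263), Mir532 (0.11, unadjusted p 0.0465) and Mir1981 (0.11, unadjusted p 0.046), all higher, and Mir99b (-0.10, unadjusted p 0.0436), lower. At low levels, Mir18 of the Mir17-92 cluster was at 3.63 to 5.69 CPM in Q111 and 2.34 to 5.13 in controls, with all 8 Q111 mice above the control median (0.33, unadjusted p 0.0227). Mir3106 was at 0.605 to 1.70 CPM against 0.720 to 2.88 (-0.70, SE 0.25, unadjusted p 0.0096). Its difference was -0.11 with the steps of the methods, a fit that shrinks differences towards 0.

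For 2 of the 21 the counts were too few for a fold change. Mir206, known from skeletal muscle, had 9 counts in all over the 8 Q111 libraries and 4 over the 16 controls, at most 3 in a library. Mir3073a had 0 counts in every Q111 library and at most 3 in a control library, where 5 of 16 had any.

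Mir122, the leading microRNA of liver, was at 0.221, 0.872 and 1.81 CPM in Q111 and 0.444, 1.88 and 9.65 in controls, a log2 difference of -1.73 (SE 0.60, unadjusted p 0.00883, adjusted p 0.392). The 5 control libraries with the code L8 held 6.21 to 9.65 CPM and the other 11 controls 0.444 to 2.20. Without the L8 libraries the difference was -0.43 (unadjusted p 0.225), it was 0.17 within the L6 libraries and -0.91 within the L7 libraries. Among the 16 controls alone, Mir122 was the 1 microRNA of 325 that differed by the code past the FDR (adjusted p 9.29e-05), and 29 had an unadjusted p under 0.05.

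Markers of other cells in a cortex sample were followed with the same values. No list had a member past the FDR. Oligodendrocyte markers (2 of 3 tested) had a median of 0.07, microglial and immune markers (5 of 8) 0.08, vascular markers (7 of 10) 0.04 (-0.03 without Q111 M1), and the 1 tested erythrocyte marker, Mir144, differed by 0.02. The 8 olfactory and epithelial markers all had a difference below 0 with a median of -0.29, and 0 of them had an unadjusted p under 0.05. Their summed level ran from 390.5 to 1044.1 CPM in Q111 and from 359.3 to 1729.3 in controls.

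Choroid plexus and ciliated cell markers varied widely between libraries. Of 10 tested, 9 had a difference above 0 with a median of 0.24, and only Mir211 had an unadjusted p under 0.05. Their sum ran from 3607.2 to 14539.1 CPM in Q111 and from 3431.7 to 14200.7 in controls. Within Q111, the 3 L6 libraries held 8347.5, 12640.7 and 14539.1 CPM and the 5 L7 libraries 3607.2 to 5093.8. The controls did not separate in this way, with 3748.0 to 8965.5 CPM in L6 libraries and 3904.6 to 14200.7 in L7 libraries. The highest sum belonged to Q111 M1, and without that library the median was -0.01. Without it the difference of Mir211 was 0.38 (unadjusted p 0.0112, adjusted p 0.363). The part of these cells in the difference of Mir211 was not tested.

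No member of the microRNA families passed the FDR. The let-7 family (8 tested) stood at -0.01, the Mir30 family (5 tested) at 0.0025, the Mir181 family (6 tested) at 0.04, the Mir15 and Mir16 family (5 tested) at -0.05, and the Mir17-92 cluster with its paralogs (13 tested) at -0.03. Medians were -0.01 for the Mir99, Mir100 and Mir125 group (6 tested), -0.01 for the Mir29 family (2 tested), 0.03 for the Mir148 and Mir152 family (3 tested) and 0.10 for microRNAs of the Hox clusters (3 tested). The microRNAs of liver, muscle and gut (13 tested), which include Mir122 and Mir206, had a median of -0.02. Without Q111 M1 the medians were 0.09 for the Mir181 family, where 3 members then had an unadjusted p under 0.05 in place of 0, 0.02 for let-7, 0.02 for Mir30, 0.01 for the Mir99 group, -0.05 for Mir29, -0.01 for the Mir17-92 group, -0.03 for Mir15 and Mir16, 0.16 for the Hox clusters and -0.08 for liver, muscle and gut. Over all microRNAs tested, 26 had an unadjusted p under 0.05 without Q111 M1, against 21 with it. The highest single level in these families was that of Mir181a-2, at 82368.1 to 130394.1 CPM in Q111 and 79173.3 to 107204.6 in controls. Its difference was 0.12 (unadjusted p 0.0525). Its mature strand is also made from Mir181a-1, so the split between them is uncertain.

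The position of Q111 in the allelic series was tested directly against the lines with longer and shorter repeats, which leaves the shared controls out. Between Q175 and Q111 mice, 30 of 323 microRNAs passed the FDR (9.29%), 15 higher in Q175 (4.64%) and 15 lower (4.64%). Between Q140 and Q111 it was 0 of 325, with 30 at an unadjusted p under 0.05 (9.23%), and 0 with DESeq2. Between Q111 and Q92 it was 0 of 325 with 45 at an unadjusted p under 0.05 (13.8%), and the smallest adjusted p was 0.0647 for Mir383 (0.28 higher in Q111) followed by 0.0648 for Mir423 (0.29 higher). DESeq2 passed 14 microRNAs in that last comparison. Each line had its own cages, so line and cage cannot be told apart here either.

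Some of the microRNAs that differed between Q175 and Q111 share a seed, and they were picked with their values known. In other families 0 of 6 Mir181, 0 of 5 Mir30, 0 of 6 Mir99, Mir100 and Mir125 and 1 of 8 let-7 members passed. Mir221 and Mir222, a pair on the X chromosome known from vessels and cell cycle control, were lower in Q175 than in Q111 by log2 differences of -0.34 (adjusted p 9.36e-05) and -0.31 (adjusted p 0.000397). Mir132 and Mir212 were lower by -0.28 (adjusted p 0.000695) and -0.23 (adjusted p 0.00138). Of the 5 tested members of the Mir15 and Mir16 family, known for restraining the cell cycle, 3 were higher in Q175 past the FDR. These were Mir15a by 0.33, Mir16-1 by 0.36 and Mir195a by 0.40, and they have the seed AGCAGCA. The other tested members, Mir15b and Mir16-2, did not pass. The mature strand miR-16-5p is also made from Mir16-2, so the split between Mir16-1 and Mir16-2 is uncertain. The sequence of Mir15b is not shown here.

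Mir135b and Mir135a-2 were lower in Q175 than in Q111 by -0.36 and -0.37 (adjusted p 0.00242 each), and Mir344b and Mir344d-1 by -0.31 (adjusted p 0.00242) and -0.35 (adjusted p 0.0101). Mir154 and Mir337 of the Dlk1-Dio3 cluster were higher in Q175 by 0.24 and 0.20 (adjusted p 0.00853 each), and 6 of the cluster's 36 tested members passed in that direction, against 4.64% of all microRNAs. Mir615, from the HoxC cluster, was higher by 2.17 (adjusted p 9.36e-05), from levels of 0.423 to 1.47 CPM in Q111. Its difference was 0.86 with the steps of the methods, where differences are shrunken towards 0.

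**Figure D3:**
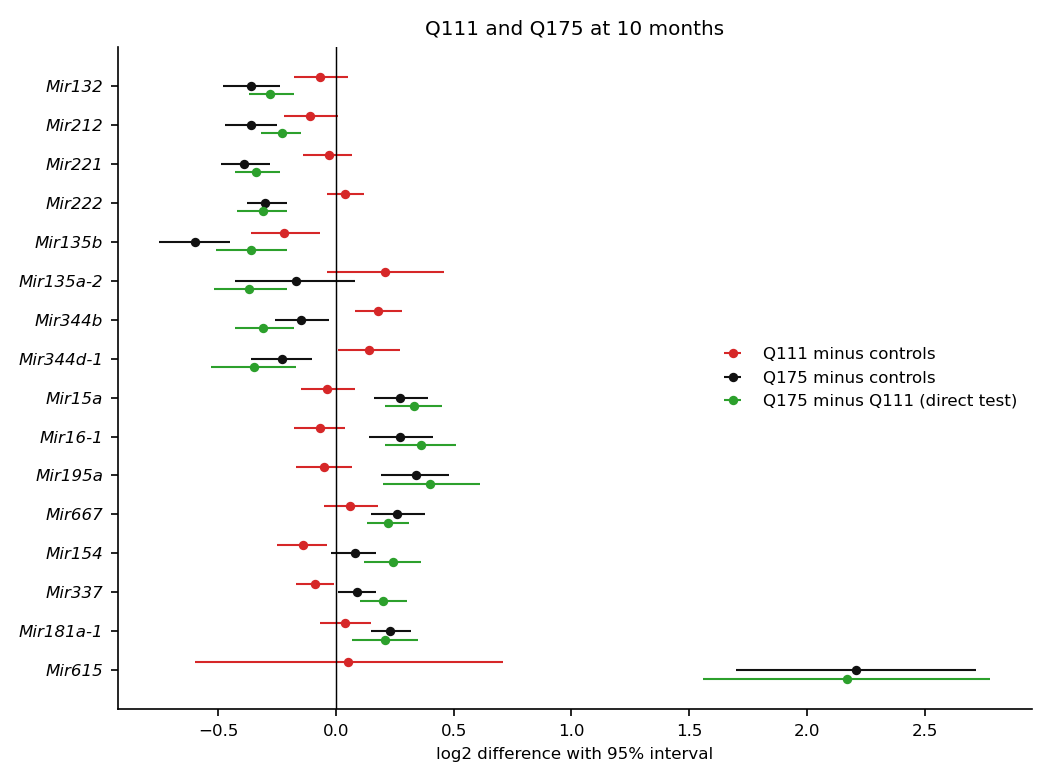
Log2 differences with 95% intervals (horizontal axis) for 16 microRNAs in Q111 minus controls (red), Q175 minus controls (black) and Q175 minus Q111 (green), all at 10 months. The red intervals mostly take in 0 while the black and green points of Mir132, Mir212, Mir221 and Mir222 lie below 0 and those of Mir15a, Mir16-1, Mir195a and Mir615 above it.

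Q175 and Q111 mice were also set against the same 16 controls, and because both comparisons share them, their values are given side by side only. In Q175 against controls 40 of 327 microRNAs passed the FDR (12.2%), 22 lower (6.73%) and 18 higher (5.50%). For these 40, the Q111 differences ran from -0.23 to 0.37 with a median of 0.0019. In Q111 2 of the 40 had an unadjusted p under 0.05, against 6.42% of all microRNAs. The Q111 median was -0.03 over the 22 lower in Q175 and 0.03 over the 18 higher, and 21 of the 40 also passed in the direct test of Q175 against Q111.

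Values against the controls are given for microRNAs with a shared seed and for Mir615 and Mir135b. Mir132 differed from controls by -0.07 in Q111 and -0.36 in Q175, and Mir212 by -0.11 and -0.36. Mir221 differed by -0.03 and -0.39 and Mir222 by 0.04 and -0.30. For Mir15a the values were -0.04 and 0.27, and for Mir615 0.05 and 2.21. Mir135b had the Q111 value farthest from 0 of these, -0.22 against -0.60 in Q175.

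Other microRNAs differed between Q175 and Q111 with values on opposite sides of the controls. Mir344b was 0.18 above the controls in Q111 and 0.15 below them in Q175 (log2 difference -0.15, adjusted p 0.0967). Mir344d-1 was at 0.14 and -0.23, Mir154 at -0.14 and 0.08, and Mir337 at -0.09 and 0.09. Of the 30 microRNAs that differed between Q175 and Q111, 21 passed in Q175 against controls and 0 in Q111 against controls. In Q111 against controls 5 of the 30 had an unadjusted p under 0.05, against 6.42% of all microRNAs. The 30 were called on the same Q111 libraries, so their Q111 values are not independent of that choice.

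On a scale normalised over all 10-month libraries, the mean level of Mir132 was 7799.7 ± 778.8 CPM in WT and 7418.5 ± 839.4 CPM in Q20 mice (SD, n = 8 each, as for the other genotypes). The Q80 mice had 7836.5 ± 608.5 CPM, the Q92 mice 7481.3 ± 262.1 and the Q111 mice 7366.8 ± 251.9. It was 6964.9 ± 659.5 CPM in Q140 and 5959.2 ± 393.7 CPM in Q175 mice. Neighbours in this order overlapped from WT to Q140, and the 8 Q175 mice reached 6393.5 CPM at most against a lowest Q111 value of 6954.6. On the same scale Mir135b stood at 72.4 ± 7.31 CPM in Q20 and 62.2 ± 6.38 CPM in Q111 mice, while Q140 mice had 57.9 ± 6.14 and Q175 mice 47.4 ± 3.03. Between Q140 and Q111 the log2 difference in Mir135b was -0.09 (95% interval -0.24 to 0.06, adjusted p 0.79). Mir344b was highest in Q111 at 136.3 ± 8.17 CPM, with 118.2 ± 10.7 in Q92, 124.5 ± 23.8 in Q140 and 108.0 ± 9.22 in Q175.

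**Figure D4:**
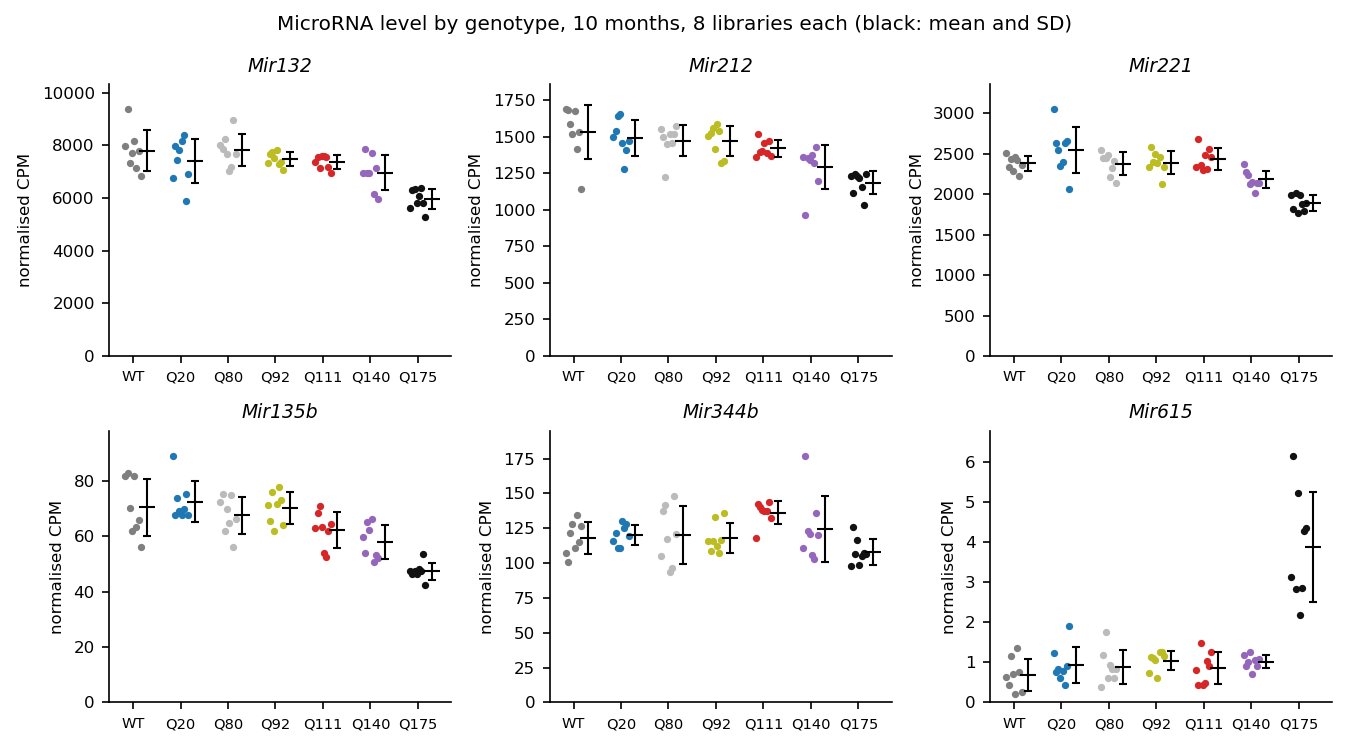
Normalised CPM (vertical axes from 0) of 6 microRNAs in each 10-month cortex library by genotype, 8 libraries each, with the mean and SD in black. The Q111 values of Mir132, Mir212 and Mir221 lie within the range of the controls and the Q175 means are the lowest. The mean of Mir135b is lower in Q111, Q140 and Q175 than in the shorter repeats, that of Mir344b is highest in Q111 and that of Mir615 in Q175.

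The Q111 difference was measured in other mice at 2 and 6 months. At 2 months, 8 Q111 mice against 16 controls gave 0 of 326 past the FDR and 16 at an unadjusted p under 0.05 (4.91%). At 6 months the 8 Q111 mice were set against 8 Q20 mice, which gave 0 of 326 and 10 (3.07%). DESeq2 passed 0 at both ages. At 6 months without the library code 0 passed and 28 had an unadjusted p under 0.05. All 4 male Q111 libraries at 6 months and none of the Q20 libraries carried the library code V. The fit with the code, which gave the 10 and the 6-month differences below, therefore rests on the females. Without the code, the Q111 difference in males cannot be told apart from the code.

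Mir344b, Mir423 and Mir135b, which led at 10 months, had intervals that took in 0 at the younger ages. Mir344b differed by 0.03 at 2 months (95% interval -0.11 to 0.17) and by -0.09 at 6 months (-0.25 to 0.06). Mir423 differed by -0.04 (-0.15 to 0.07) and 0.06 (-0.08 to 0.19), and Mir135b by -0.04 (-0.15 to 0.08) and 0.04 (-0.17 to 0.25). Mir154 was 0.11 higher at 2 months (unadjusted p 0.027, adjusted p 0.825) against -0.14 at 10 months. Mir211 was at -0.42 at 2 months (unadjusted p 0.0422, adjusted p 0.825) against 0.39 at 10 months.

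Tested as an interaction, the change of the Q111 difference from 2 to 10 months passed the FDR for 0 of 328 microRNAs, with 22 at an unadjusted p under 0.05 (6.71%), and DESeq2 passed 2, Mir122 and Mir154. The smallest adjusted p, 0.146, was shared by Mir122 (-3.38), Mir154 (-0.24) and Mir211 (0.81), and Mir423 followed at 0.29 (adjusted p 0.211). The 9 microRNAs that passed in Q175 against Q20 at 6 months (2.77% of 325), which were chosen in other mice, had Q111 differences at 10 months between -0.10 and 0.11 with a median of 0.04. None of these 9 had an unadjusted p under 0.05 in Q111 at 10 months.

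**Figure D5:**
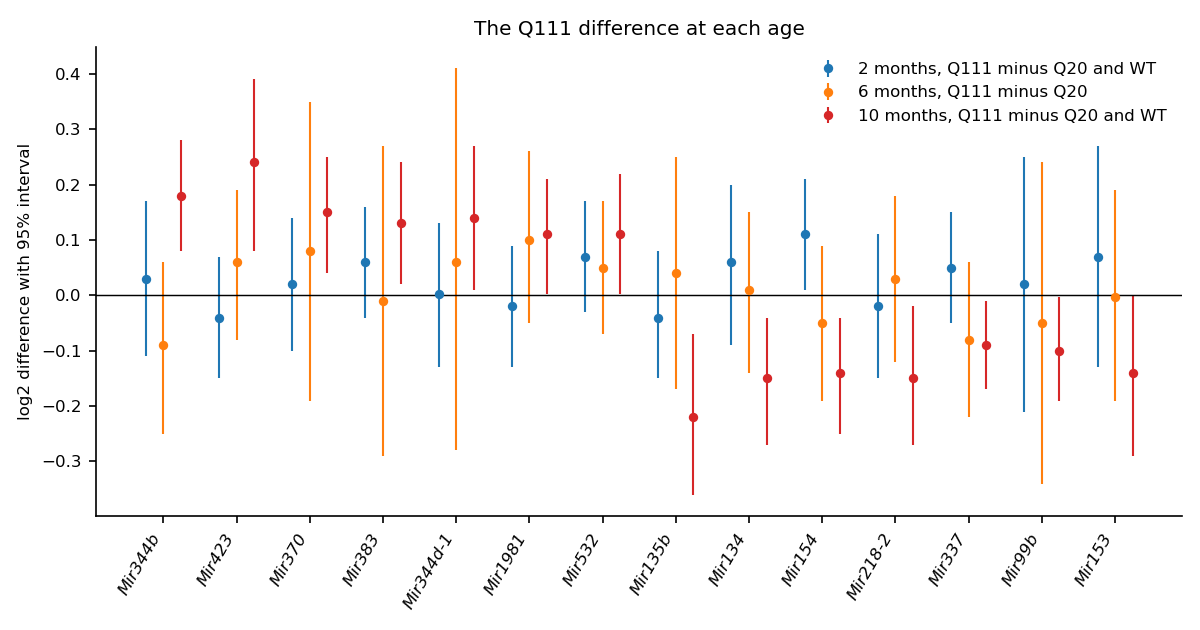
Log2 difference between Q111 mice and their controls with the 95% interval (vertical axis) for 14 microRNAs at 2 months (blue), 6 months (orange, Q20 controls only) and 10 months (red). The microRNAs were picked for their p at 10 months, so the red values lie away from 0 by choice, while the blue and orange intervals mostly take in 0.

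The Q111 difference at 10 months was also compared between the sexes, with 4 Q111 mice and 8 controls of each by cage. Out of 327 microRNAs the interaction passed the FDR for 0, also with DESeq2, while 18 reached an unadjusted p under 0.05 (5.50%). The smallest p belonged to Mir101b, where the difference in males was lower than in females by 0.24 on the log2 scale (unadjusted p 0.00236).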

How the data were processed

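Small RNA of mouse cortex was sequenced on Illumina instruments. Per the methods, the authors clipped the reads, aligned them to mm10 with STAR and counted them with HTSeq, and CASAVA 1.8.2 is named in the submitters' processing notes. The authors deposited an estimated count per Ensembl transcript (1626) and library, without normalization. Because 48.1% of its nonzero values are fractional, for a reason not given in the sources used here, the counts were rounded. Their FPKM table was not used.

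GENCODE names for GRCm38 matched 1228 transcripts and 329 of the 480 microRNAs that the study retained. The other 151 were not analysed here. A feature was tested where the libraries compared held at least 1 count of it. The test was the two-sided quasi-likelihood F test of edgeR 4.0.16 (R 4.3.3) with robust fitting and TMM scaling. Covariates were the sex of the cage and, at 6 months, the library code. The Benjamini-Hochberg adjustment ran over all features tested, with a threshold of 0.05. CPM are TMM-normalised. The code was tested on simulated data. Counting error limits the precision of microRNAs with few counts.

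The named microRNAs were those with an unadjusted p under 0.05 in Q111 against controls, the calls of Q175 against Q20 at 6 months, the 5 falling and 5 rising calls of Q175 against controls and the 5 smallest p of each other Q111 comparison with more than 5 calls, the extremes of each list and a list of 20 taken mostly from the study. The rest were named with their values known (the calls of Q175 against Q111 beyond the first 5, the leading microRNAs of comparisons without calls, Mir128-1 and Mir181a-2). The members and lists were chosen with earlier results of these data known. Of 203 list members, 163 were tested and 14 were not found. Alternatives were RLE scaling, library totals alone, DESeq2 1.42.0, other filters and features, the steps of the methods, other covariates and controls, and leaving out libraries. The steps of the methods were replacement of outlier counts and DESeq2 with differences shrunken towards 0. That fit took the sex of the cage as its covariate, without the batch that the methods name.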

Additional observations from a re-analysis of the deposited data

Results flagged for a closer look

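In groups of 8 libraries, the highest or the lowest library was tested for its gap to the next one by Dixon's 95% criterion, in 141 groups, of which 11 stood out. Chance gives about 1 in 20. Of these, 4 concern Q111 libraries. Q111 M1 was lowest for Mir181a-1 at 5180.7 CPM, with the next library at 6573.3, and highest for Mir138-2 at 13962.4 CPM, with the next at 10619.3, and Q111 M2 was highest for Mir125b-1 at 2070.9 CPM, with the next at 1877.9. Q111 F1 was lowest for Mir344b at 118.6 CPM, with the next at 133.3, so the highest-ranked microRNA of the comparison had 1 Q111 library at control level. Among Q20 libraries, M3 was highest for Mir122 at 7.07 CPM (next 2.20) and for Mir3073a at 0.643 CPM (next 0.192), and it is the 1 Q20 library with the code L8. Q20 F5 was highest for Mir206 at 0.203 CPM, which is 1 count, and F3 for Mir187 at 55.7 CPM (next 36.9). Q20 M1 was lowest for Mir212 at 1278.4 CPM (next 1489.0), F1 for Mir667 at 293.6 CPM (next 358.1), and M2, the library with the fewest counts, for Mir128-2 at 11402.0 CPM (next 13410.5). By edgeR in the fits as designed, no difference of the Q111 effect between 2 and 10 months or between the sexes passed the FDR, while DESeq2 passed Mir122 and Mir154 and the L code as a covariate Mir423 for the change with age.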

How the results depend on the processing

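In Q111 against controls at 10 months, 1 microRNA passed the FDR in place of 0 with DESeq2 (Mir344b, adjusted p 0.0377), with the steps of the methods (Mir344b, 0.0254), with the L code as a covariate (Mir423, 0.00973) and without the L8 libraries (Mir423, 0.019), and 0 passed with the other alternatives run. The fit modelled on the methods had no batch covariate, so its call of Mir344b is not a rerun of the study's own test. The study's text lists no cortex calls for Q111 mice. With each library left out in turn, 0 passed in all 24 fits and 19 to 27 had an unadjusted p under 0.05. The replicate numbers of the titles did not pair the samples (22 pairs, correlations from -0.52 to 0.51, median 0.07, 8 over 0.1), and the replicate block gave 0 calls and 15 at an unadjusted p under 0.05, against 21. With the L code 39 and without the L8 libraries 25 had an unadjusted p under 0.05. Mir344d-1 (-0.01) and Mir153 (0.0010) changed sign within the L7 libraries, and Mir122 (0.17) did within the L6 libraries. The cause was not tested.

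In Q111 against Q20 alone, 1 microRNA passed with DESeq2 (Mir423, adjusted p 0.0179). In Q111 against Q92, the count of 0 became 14 with DESeq2 and with the steps of the methods, 3 with all transcripts and with the replicate block, 4 with the L code and 1 with all genotypes fitted together. The age interaction gave 2 with DESeq2 (Mir122 and Mir154) and 1 with the L code (Mir423). In Q175 against Q20 at 6 months the 9 calls became 3 with RLE scaling and 15 without the library code. Q175 against Q111 gave between 23 and 44 calls over its alternatives, of which 17 (all transcripts) to 30 were among the 30, and 26 to 35 with a library left out. With library totals alone 11 of 30 calls were higher in Q175 (36.7%), against 15 of 30, with all transcripts 9 of 23 (39.1%) and with all genotypes 13 of 33 (39.4%). Depth limits microRNAs below 10 CPM.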

Other observations

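Of the 203 list members, 26 were in the table but had no match by symbol in the microRNA list of the study, and they were measured in a fit over all transcripts. None passed the FDR in Q111 against controls at 10 months, and 3 of the 26 had an unadjusted p under 0.05. Over all transcripts of that fit it was 86 of 1193. Mir92-1, of the Mir17-92 cluster, differed by 0.21 on the log2 scale (SE 0.05, unadjusted p 0.000405, adjusted p 0.483). Mir21a, which is raised in reactive glia, differed by -0.15 (unadjusted p 0.00255). It is on the microglial and immune list, where 4 of the 5 tested members had a difference above 0 and 1 below (median 0.08). Mir434, of the Dlk1-Dio3 cluster, differed by 0.16 (unadjusted p 0.00624).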
